A study of Mus musculus with 9 samples.

Results

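The genes encoding the proteins of the cytosolic ribosome were examined for binding of the deubiquitinase BAP1 in the Ba/F3 cell line, a murine IL-3 dependent pro-B cell line. The set held the protein-coding genes of the GENCODE M1 annotation with symbols Rpl or Rps followed by a number, and Rpsa and Rplp0 to Rplp2, without the Rps6k kinases, Rps19bp1 and -ps symbols. This gave 84 of 22367 protein-coding genes, taken by symbol. The genes fell into 42 of the large subunit, 3 of the ribosomal stalk, 31 of the small subunit and 8 paralogs, and lay on 19 chromosomes. ChIP-Seq gave a single list of 13164 peaks of BAP1 binding, each 200 bp wide, which covers 2 of the 9 samples of the series. One was an anti-BAP1 immunoprecipitation from wild type Ba/F3 cells, and the other an anti-FLAG immunoprecipitation from Ba/F3 cells stably expressing murine BAP1 with a triple FLAG tag, selected with puromycin. Both cultures received IL-3 from WEHI conditioned medium. Left out, and not analysed here, were 4 samples of input DNA and 3 of H2AK119ub. Both kinds came from wild type cells and from the BAP1-deficient single-cell clones BAP1KO3 and BAP1KO4, and an input sample also came from the FLAG-tagged cells.

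The list combines both immunoprecipitations and therefore has no replicates, and it gives each peak a position but no height, score or p-value. A peak shows where BAP1 was called bound and not how much BAP1 was there. The depth of the samples is unknown, so the intervals below are 95% Wilson intervals that cover counting error over genes only. Genes are not replicates of a condition, so no test was made and the counts stand beside those of all protein-coding genes. Expression was not held here, and the labelled cell type was not checked against its markers.

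Each cytosolic ribosome is built from a large and a small subunit, whose proteins are made in matching amounts in every growing cell. Many ribosomal protein mRNAs begin with a cytosine followed by a run of pyrimidines, the 5′ terminal oligopyrimidine tract, through which mTOR signaling controls their translation. Ribosome production is high in dividing hematopoietic progenitors, and inherited loss of a single copy of any of several ribosomal protein genes causes Diamond-Blackfan anemia, a failure of red cell production. BAP1 removes monoubiquitin from histone H2A lysine 119, a mark deposited by Polycomb repressive complex 1, and is found in complexes with ASXL proteins, HCF-1, FOXK1 and FOXK2.

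Sequences of BAP1 peaks at 6 ribosomal protein genes are printed here because they hold the motifs counted further on or show a gene with several peaks. The first 7 sequences are whole peaks and the last 2 are windows of equal length around the RefSeq transcription start sites (TSSs) of Rps15a and Rpl39l, which had no peak. All are from mouse build mm9, on the strand of the gene. Capitals mark matches on either strand to CCGGAAG for ETS factors, AANATGGCG for YY1, TGACGTCA for the CRE, TCTCGCGAG for ZBTB33 and TATAAA for the TATA box. A match describes the letters only and is not evidence of a bound factor.
Rps6, chr4:86503227-86503426, minus strand: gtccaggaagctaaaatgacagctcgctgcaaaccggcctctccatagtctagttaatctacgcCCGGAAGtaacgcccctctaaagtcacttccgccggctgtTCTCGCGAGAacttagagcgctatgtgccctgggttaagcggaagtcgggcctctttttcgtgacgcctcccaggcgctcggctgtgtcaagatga
Rps19, nearest peak, chr7:25669239-25669438, plus strand: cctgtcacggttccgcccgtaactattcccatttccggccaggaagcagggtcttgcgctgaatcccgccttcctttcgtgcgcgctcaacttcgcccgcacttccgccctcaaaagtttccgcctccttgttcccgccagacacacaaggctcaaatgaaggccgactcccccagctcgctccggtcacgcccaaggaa
Rps19, further peak, chr7:25669484-25669683, plus strand: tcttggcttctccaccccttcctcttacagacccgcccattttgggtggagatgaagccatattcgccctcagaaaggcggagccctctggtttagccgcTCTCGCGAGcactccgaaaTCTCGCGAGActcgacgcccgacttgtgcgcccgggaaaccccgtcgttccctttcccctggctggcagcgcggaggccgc
Rpl27a, nearest peak, chr7:116662519-116662718, plus strand: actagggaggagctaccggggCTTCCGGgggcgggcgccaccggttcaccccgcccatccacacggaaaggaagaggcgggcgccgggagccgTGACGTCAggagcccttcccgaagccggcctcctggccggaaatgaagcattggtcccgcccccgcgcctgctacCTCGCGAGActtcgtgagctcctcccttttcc
Rpl24, second nearest peak, chr16:55966353-55966552, plus strand: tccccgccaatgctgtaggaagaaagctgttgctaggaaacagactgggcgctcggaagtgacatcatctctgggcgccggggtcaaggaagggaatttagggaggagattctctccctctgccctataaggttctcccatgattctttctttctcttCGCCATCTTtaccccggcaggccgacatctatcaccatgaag
Rpl22l1, chr3:28704264-28704463, plus strand: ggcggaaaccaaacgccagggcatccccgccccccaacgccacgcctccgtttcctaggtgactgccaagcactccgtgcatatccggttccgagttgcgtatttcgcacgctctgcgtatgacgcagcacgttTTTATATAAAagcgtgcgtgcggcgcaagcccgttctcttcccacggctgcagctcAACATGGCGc
Rplp0, further peak, chr5:116009336-116009535, plus strand: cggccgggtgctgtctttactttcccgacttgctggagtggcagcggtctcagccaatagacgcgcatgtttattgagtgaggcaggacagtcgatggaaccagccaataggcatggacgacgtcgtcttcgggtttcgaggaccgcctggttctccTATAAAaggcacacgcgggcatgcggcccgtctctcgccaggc
Rps15a, no peak, chr7:125259612-125259811, minus strand: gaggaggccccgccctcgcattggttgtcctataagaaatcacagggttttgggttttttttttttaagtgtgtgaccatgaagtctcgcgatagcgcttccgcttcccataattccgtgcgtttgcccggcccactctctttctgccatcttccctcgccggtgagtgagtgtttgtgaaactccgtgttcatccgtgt
Rpl39l, no peak, chr16:10170171-10170370, plus strand: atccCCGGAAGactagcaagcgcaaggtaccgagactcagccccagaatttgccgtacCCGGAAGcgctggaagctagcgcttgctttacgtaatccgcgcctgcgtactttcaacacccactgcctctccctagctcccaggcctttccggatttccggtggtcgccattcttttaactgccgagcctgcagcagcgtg

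Counting from 1 at the 5′ end, the Rps6 peak held an ETS match at position 65 and, at 105, the ZBTB33 letters on both strands, followed by annotated TSSs at 111, 169, 178 and 191. In Rps19, the further peak held the ZBTB33 letters at 101 and 120, upstream of the first TSS in that peak at 169, and the nearest peak held none of the 5 motifs shown. Rpl27a combined an ETS match at 22, a CRE at 94 and the ZBTB33 letters at 169. In Rpl22l1, matches to the TATA box began at 135 and 139, downstream of the only annotated TSS in the peak at 95. In the Rplp0 peak the match began at 158, downstream of the annotated TSS at 141. Measured from the RefSeq starts, the middles of these peaks lay at -67 bp (Rpl22l1) and -41 bp (Rplp0). The RefSeq start of Rpl22l1, at chr3:28704430, lies downstream of both of its TATA matches. That of Rplp0 is the same base as the annotated TSS in the peak. The Rps15a window held none of these motifs, and the Rpl39l window held the ETS letters at 5 and 59.

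BAP1 peaks were found at nearly every gene of the cytosolic ribosome. Gene-proximal here means a distance of at most 1 kb between the peak's middle and any annotated TSS of that gene. Such a peak was present at 79 of the 84 genes (94.0%, interval 86.8 to 97.4%), compared with 39.6% of all protein-coding genes (8850 of 22367). All 42 genes of the large subunit and all 3 stalk genes were bound, as were 30 of 31 genes of the small subunit (96.8%). The paralogs were bound in 4 of 8 cases (50.0%, interval 21.5 to 78.5%), so that without them 75 of 76 genes (98.7%) carried a peak. In total, 96 of the 10073 gene-proximal peaks lay at these genes.

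**Figure D1:**
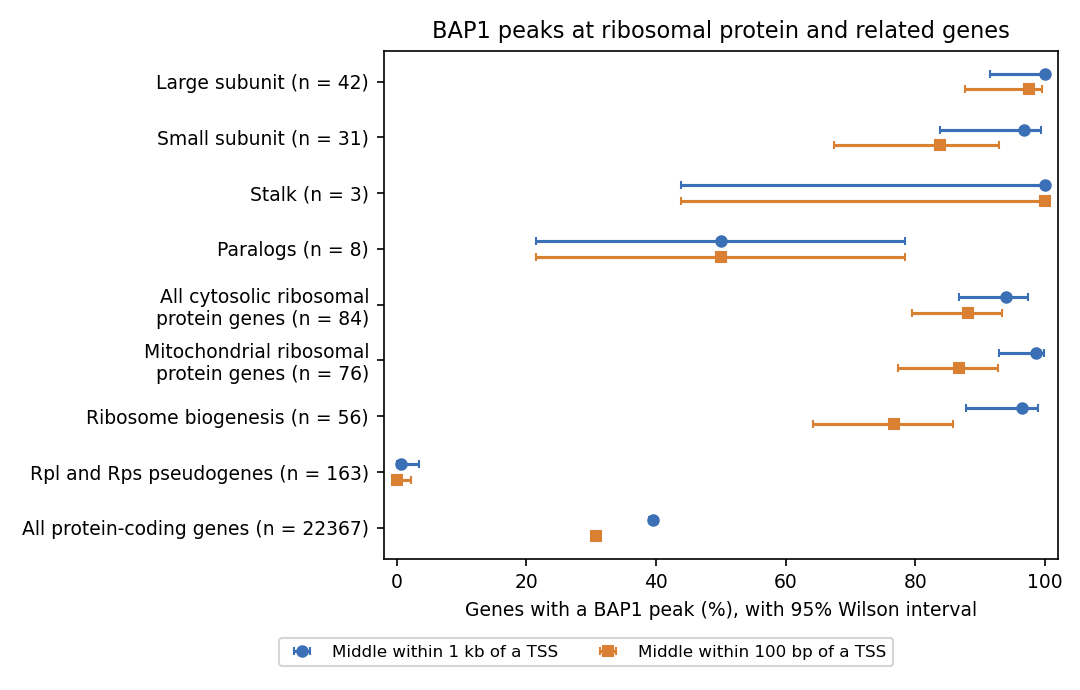
Share of genes with a BAP1 peak, in percent, for the groups of cytosolic ribosomal protein genes, related gene sets and all protein-coding genes, with circles for a peak middle within 1 kb and squares for one within 100 bp of a TSS, and bars for 95% Wilson intervals. The large and small subunit genes sit at 100% and 96.8% within 1 kb, the pseudogenes at 0.613% and all protein-coding genes at 39.6%.

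Most of these peaks covered a TSS. A peak middle within 100 bp of a TSS, which with peaks of this width means that the peak overlies it, was found at 74 genes (88.1%, interval 79.5 to 93.4%), compared with 30.8% of all protein-coding genes. By group, this held for 41 of 42 large subunit genes, 3 of 3 stalk genes, 26 of 31 small subunit genes and 4 of 8 paralogs. With 1 TSS per gene in place of all annotated TSSs, it held for 63 of the 84 genes (75.0%) and for 25.6% of all protein-coding genes. Among the 79 bound genes, the middle of the nearest peak was placed on 1 transcript per gene, that with the longest coding sequence. It lay outside this transcript in 48, in an exon in 27 and in an intron in 4. A peak outside this transcript can still lie inside the annotated gene, as in Rps2.

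The nearest peak was centered just upstream of the TSS. Its middle had a median offset of -37.0 bp (quartiles -57.5 and -2.50 bp, n = 79 genes), where negative values are upstream, and lay upstream in 60 genes (75.9%). The other protein-coding genes with a peak had a median of -32.0 bp (quartiles -73.0 and 0 bp), with 75.0% upstream. Within 100 bp of the TSS lay 93.7% of the nearest peaks of ribosomal protein genes and 77.6% of those of the other genes. These values use the nearest of all annotated TSSs of a gene. With 1 TSS per gene, the middle lay upstream in 64.9% of 77 ribosomal protein genes and in 70.5% of the other genes, so the order turned. The shares within 100 bp were then 81.8% and 68.2%, and the medians -35.0 and -36.0 bp. The large subunit (median -36.0 bp) and the small subunit (median -39.5 bp) had closely similar positions.

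**Figure D2:**
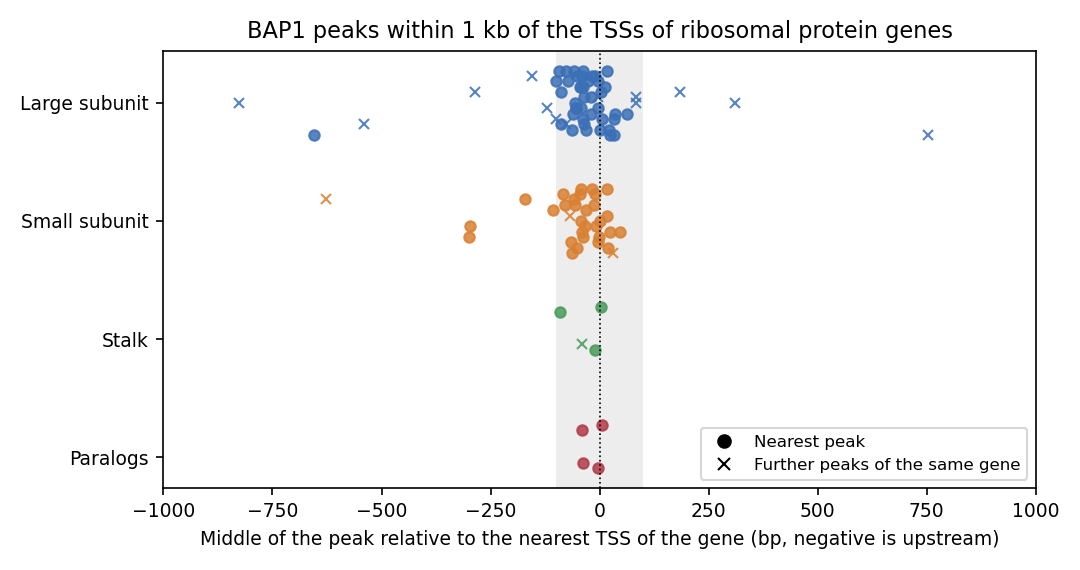
Position of every BAP1 peak within 1 kb of a TSS of a cytosolic ribosomal protein gene, in bp from the nearest TSS of that gene, by group of genes, with circles for the nearest and crosses for further peaks of a gene and the zone within 100 bp shaded. Of 79 nearest peaks, 74 lie in the shaded zone, and the one at -655 bp belongs to Rpl7.

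**Figure D3:**
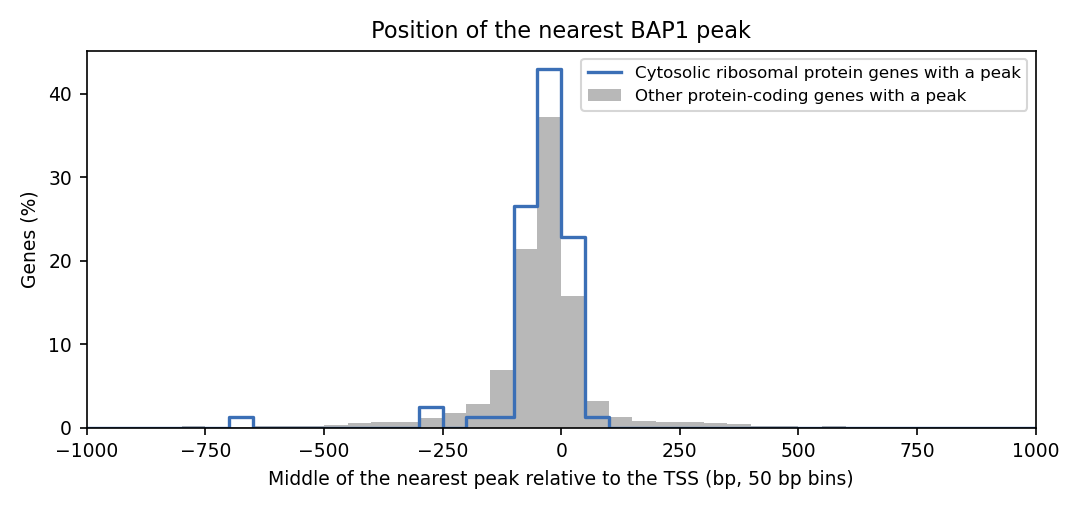
Share of genes with a peak, in percent, by the position of the middle of the nearest peak from the TSS in bins of 50 bp, as a line for the 79 cytosolic ribosomal protein genes and as bars for the other 8771 protein-coding genes. Both distributions are highest just upstream of the TSS, with medians of -37.0 and -32.0 bp.

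At the large subunit genes, the peaks of Rpl5 and Rpl11, whose products bind MDM2 with the 5S RNA when ribosome assembly is disturbed, were centered at 21 and -10 bp. The peaks of Rpl22, which encodes an RNA-binding protein of the large subunit, and of Rpl10, a protein that joins the subunit late in its assembly, lay at -37 and -59 bp. Rpl29 and Rpl35a each had 1 peak at -3 bp and were among the genes with the smallest distance. The exception in this subunit was Rpl7, whose 2 peaks lay at -655 and -827 bp and were both nearer to a TSS of the neighbouring gene Rdh10. With a window of 500 bp, Rpl7 no longer counted as bound, while 78 of 84 genes (92.9%) did.

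The 3 stalk genes encode the acidic P proteins that recruit translation factors to the large subunit. Rplp0 had 2 peaks 155 bp apart, at 3 and -41 bp from different TSSs. Rplp1 had 1 peak at -91 bp and Rplp2 1 peak at -11 bp. All these peaks lay over a TSS.

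At the small subunit, Rps6, the substrate of the S6 kinases, had 1 peak at -10 bp, and Rps27a, which encodes a fusion of ubiquitin and a ribosomal protein, had 1 peak at -3 bp. Rps19, the gene most often mutated in Diamond-Blackfan anemia, had 2 peaks 245 bp apart, at -52 bp and -69 bp from different TSSs. Rpsa, also known as the laminin receptor, had 1 peak at -79 bp, and the peaks of Rps3a and Rps9 lay at 2 and -2 bp. The largest distances among genes with 1 peak were those of Rps26 (-299 bp), Rps23 (-297 bp), Rps14 (-172 bp) and Rps18 (-108 bp), followed by Rpl21 of the large subunit (-99 bp). The 4 small subunit genes among them, and Rpl7, were the only bound genes without a peak over a TSS. All 19 genes on the list of genes mutated in Diamond-Blackfan anemia were bound, 18 of them (94.7%) over a TSS. These shares are near those of all genes of the set outside the paralogs, 98.7% and 92.1%. Of all protein-coding genes, 39.6% and 30.8% had such peaks.

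Rps15a was the only gene outside the paralogs that had no gene-proximal peak. It encodes a core protein of the small subunit and lies on the minus strand at chr7:125247892-125259700, with 7 annotated TSSs. Its nearest peak lay 127479 bp away, upstream. The promoter CpG ratio of Rps15a, observed over expected within 500 bp of the TSS, was 0.72, within the range of the bound genes. All 351 windows of 50 bases around its TSS occurred once in the genome, and the median of the bound genes was 100% unique as well. On chromosome 7, which holds the most genes of the set, 13 of 14 were bound, Rps15a being the exception.

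The remaining unbound genes were the paralogs Rpl10l, Rpl39l, Rpl3l and Rps4y2. Rpl10l and Rpl39l are known as testis-expressed copies of Rpl10 and Rpl39, and Rpl3l as a muscle-expressed copy of Rpl3. Their nearest peaks lay 461348 bp (Rpl10l), 116356 bp (Rpl39l), 3412 bp (Rpl3l) and 142463 bp (Rps4y2) from a TSS. Rpl10l and Rps4y2 were the only 2 of the 84 genes with a single exon. The parent genes were all bound, with peaks at -59 bp for Rpl10, -88 bp for Rpl39, 6 bp for Rpl3 and 18 bp for Rps4x. Rpl3l had the lowest promoter CpG ratio of all 84 genes (0.18), while that of Rps4y2 was 0.93.

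The other 4 paralogs were bound close to the TSS, as were their parents with the exception of Rpl7. Rpl22l1 had a peak at 5 bp, against -37 bp in Rpl22. Rps27l, a copy of Rps27 that is induced by p53, had a peak at -3 bp, against -56 bp in Rps27. Rpl36al had a peak at -39 bp, against -19 bp in Rpl36a, and Rpl7l1 a peak at -40 bp, against -655 bp in Rpl7. In all 5 unbound genes of the set, more than 90% of the windows of 50 bases around the TSS were unique (lowest 92.0%, in Rps4y2).

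Several peaks at 1 gene were less common. Of the 84 genes, 15 (17.9%, interval 11.1 to 27.4%) had 2 or more gene-proximal peaks, compared with 10.1% of all protein-coding genes. They comprised 11 of the large subunit, 1 of the stalk and 3 of the small subunit. Offsets were taken from the nearest TSS of each peak, and in 9 of the 15 genes the peaks were measured from different TSSs, so their spacing on the chromosome is given as well. In 10 of the 15 genes all peaks lay within 500 bp of each other. The 2 peaks of Rpl27a (-43 and -155 bp, 112 bp apart), Rpl32 (-31 and 83 bp, 114 bp apart) and Rpl23a (-35 and 184 bp, 219 bp apart) were each measured from 1 TSS, as were those of Rpl17 (32 and 311 bp) and Rps25 (46 and -628 bp). Those of Rps3 (18 and 30 bp, 116 bp apart), Rpl34 (24 and 84 bp, 124 bp apart) and Rpl13 (-26 and -101 bp, 226 bp apart) were nearest to different TSSs. Peaks further apart were seen in Rpl30 (-44 and -540 bp, 877 bp apart) and Rpl18 (-39 and -121 bp, 2696 bp apart). Rpl24 had 3 peaks at 0, -4 and 752 bp from 3 TSSs, which spanned 8296 bp. Rpl13a, which hosts 4 snoRNA genes, had 3 peaks at -43, -77 and -286 bp, which spanned 7703 bp. Some peaks of the 15 genes were nearer to a TSS of another gene. These were the peaks of Rpl17 at 311 bp (SNORD58), Rps25 at -628 bp (Trappc4), Rpl13a at -77 bp (Flt3l) and Rpl18 at -39 bp (Sphk2). Both peaks of Rpl7 were nearer to Rdh10. The ribosomal protein genes also had more annotated TSSs (median 4.00 against 2.00), each of which can bring in a further peak. When peaks within 500 bp of each other were merged, 4 genes (4.76%) kept 2 or more, compared with 2.31% of all protein-coding genes.

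Of the 5 genes without a gene-proximal peak, 1, Rpl3l, had its nearest peak between 1 and 50 kb from its TSSs, compared with 38.5% of the other protein-coding genes without a gene-proximal peak (5198 of 13512). Over all genes these counts are 1 of 84 (1.19%, interval 0.210 to 6.44%) beside 23.2% of all protein-coding genes, a difference set by the share of genes with a gene-proximal peak, which cannot be counted here. None of the 5 had a peak within 50 kb that was also more than 1 kb from every annotated TSS. Peaks away from the promoter at the other 79 genes were not counted.

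Some of these promoters are shared with another gene, and a single peak cannot be assigned to either side. In 14 of the 84 genes, a coding gene on the other strand had a TSS within 1 kb, and all 14 were bound, as were 65 of the 70 others (92.9%). Among the remaining protein-coding genes, 81.9% of those with such a neighbour and 33.6% of those without had a peak. In 10 of the 84 genes every peak was nearer to a TSS of another gene, as for Rps28 with Ndufa7 (29 bp between the TSSs), Rpl12 with Lrsam1 (33 bp), Rps27 with Rab13 (44 bp) and Rpl9 with Lias (54 bp). When each peak was counted only for the gene with the nearest TSS, 69 genes (82.1%) kept a peak, compared with 35.1% of all protein-coding genes.

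Introns of ribosomal protein genes often carry snoRNA genes, whose products guide the modification of ribosomal RNA. All 30 genes with an annotated snoRNA gene inside had a peak over a TSS, beside 30.8% of all protein-coding genes. Of the 54 without one, 49 (90.7%) had a gene-proximal peak, beside 39.6% of all protein-coding genes, and 44 (81.5%) a peak over a TSS. The 54 include all 8 paralogs, and without them 45 of 46 (97.8%) had a gene-proximal peak.

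The promoters of ribosomal protein genes were rich in CpG. Their median CpG ratio was 0.82 (range 0.18 to 1.03), against 0.55 in the other protein-coding genes. Among genes with a ratio of 0.6 to 0.8, 29 of 31 ribosomal protein genes and 64.6% of the other genes were bound. From 0.8 to 1.0, the counts were 44 of 45 against 76.3%. The ribosomal protein genes also had more annotated TSSs (median 4.00 against 2.00), which gives a peak more chances to lie near one. Among genes with 1 TSS, 20 of 22 ribosomal protein genes (90.9%) and 23.6% of the other genes were bound, and among genes with 5 or more, 35 of 36 (97.2%) and 65.1%. The part of transcription level in these shares was not tested.

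**Figure D4:**
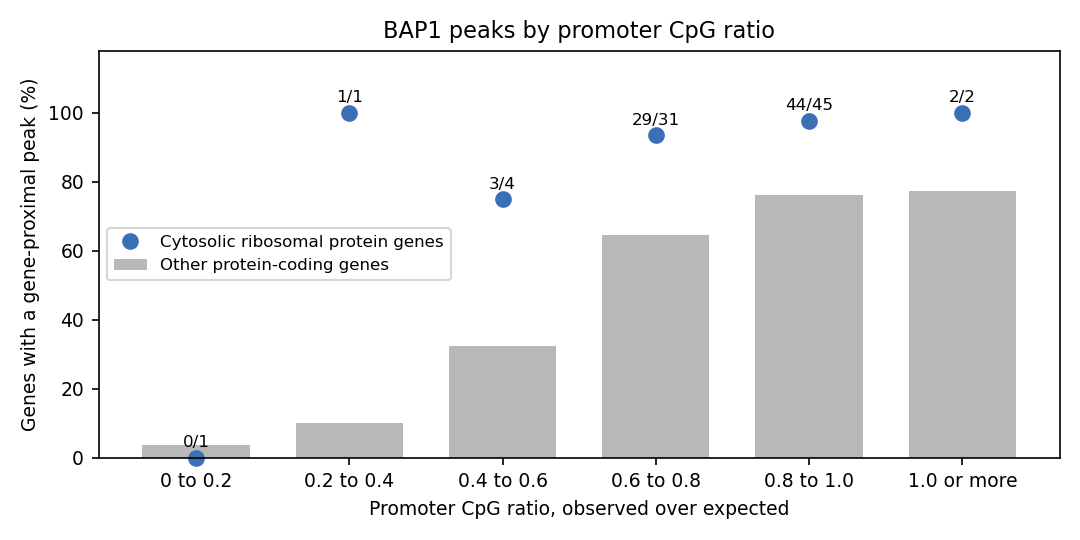
Share of genes with a gene-proximal BAP1 peak, in percent, by promoter CpG ratio (observed over expected), with bars for the other protein-coding genes and circles for cytosolic ribosomal protein genes, each with its count of bound genes over all genes of that bin. In the bins from 0.6 to 1.0, which hold most ribosomal protein genes, circles stand above bars of 64.6% and 76.3%.

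In the peak sequences, 11 motifs were counted on either strand, none of which contains another. Beside the 5 motifs printed above, these were GGGCGG (Sp/KLF), GCGCATGCG (NRF1), CACGTG (E-box), CCAAT (NF-Y), GTAAACA (FOX) and ACANNTCCC (THAP11, which recruits HCF-1). Of the 11, the ZBTB33 letters had the largest ratio to other peaks, being seen in 10.4% of the 96 peaks at ribosomal protein genes and in 1.35% of the other 9977 gene-proximal peaks. Genes with such a peak included Rpl10a, Rpl12, Rpl17, Rpl26, Rpl27a, Rps19, Rps28 and Rps6, as in the Rps6 sequence printed above. The ETS letters stood in 34.4% against 20.1% of peaks, YY1 in 11.5% against 6.08%, CRE in 7.29% against 3.31% and the TATA box in 9.38% against 2.35%. The other shares were lower at ribosomal protein genes, with Sp/KLF in 60.4% against 68.7%, NF-Y in 25.0% against 30.0%, the E-box in 6.25% against 8.08%, THAP11 in 5.21% against 5.94%, NRF1 in 3.12% against 4.05% and FOX in 0% against 2.11%. None of these differences was tested.

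**Figure D5:**
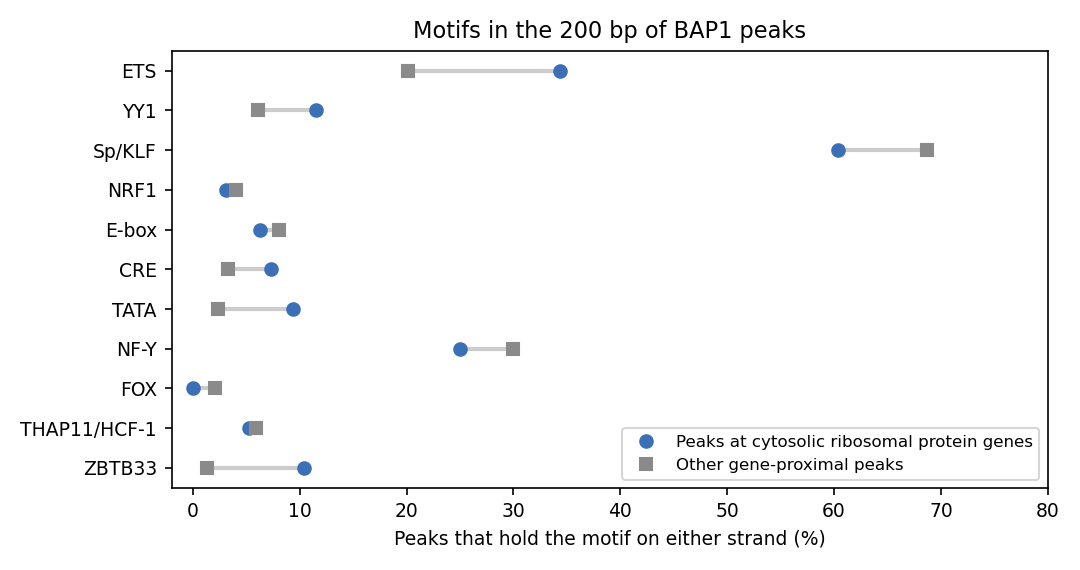
Share of BAP1 peaks whose 200 bp hold each of 11 motifs on either strand, in percent, with circles for the 96 peaks at cytosolic ribosomal protein genes and squares for the other 9977 gene-proximal peaks. The ZBTB33 letters stand at 10.4% against 1.35% and the ETS letters at 34.4% against 20.1%.

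The same motifs were counted in promoters, from 250 bp before to 50 bp after 1 TSS per gene. Against all protein-coding promoters, of which most are unbound, the ZBTB33 letters stood in 8 of 84 ribosomal protein promoters (9.52%) against 0.890%, and ETS in 25 (29.8%) against 10.9%. YY1 stood in 8.33% against 3.23%, CRE in 7.14% against 2.34%, NRF1 in 2.38% against 2.10%, the E-box in 11.9% against 7.74%, THAP11 in 9.52% against 6.72% and Sp/KLF in 53.6% against 44.6%. NF-Y stood in 31.0% against 37.6%, FOX in 0% against 2.99% and the TATA box in 11.9% against 13.4%. Among bound genes only, the 79 ribosomal protein promoters were set against those of 8771 other protein-coding genes. Since a gene counted as bound by a peak at any of its TSSs, some of these promoters lie away from the peak. Rpl7 and Rps10, for example, had no gene-proximal peak at the TSS used. The ZBTB33 letters then stood in 10.1% against 1.78%, the TATA box in 12.7% against 5.81%, ETS in 30.4% against 22.8%, CRE in 7.59% against 3.97%, YY1 in 8.86% against 6.72% and the E-box in 12.7% against 10.8%. Sp/KLF stood in 54.4% against 69.0%, NF-Y in 31.6% against 40.3%, NRF1 in 2.53% against 4.48%, THAP11 in 8.86% against 9.16% and FOX in 0% against 2.31%. The order of the shares thus turned with the background for Sp/KLF, NRF1, THAP11 and the TATA box, and it was the same in the peaks and in both sets of promoters for ZBTB33, ETS, YY1, CRE, NF-Y and FOX. Of the 25 ribosomal protein promoters with the ETS letters 24 belonged to bound genes, beside 82.8% of all coding promoters with these letters, and of the 8 with the ZBTB33 letters all did, beside 82.4%. Both counts are near the 94.0% of bound genes in the whole set.

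The terminal oligopyrimidine tract was sought at the start sites of RefSeq, whose promoter sequences (build GRCm38.p6) covered 62 of the 84 genes and were each found unchanged in mm9. A cytosine at the start followed by pyrimidines, with a run of at least 5 in all, was present at a start of 13 of the 62 genes (21.0%) and of 2.60% of the other 17430 protein-coding genes of RefSeq. The run had to begin exactly at the annotated start, which was not checked against measured 5′ ends of transcripts. Rpl27a, with a run of 16 pyrimidines beginning at a T, was therefore not counted. The 21.0% can thus miss genes with a tract. In 12 genes it was present at the start nearest to the peak, or, in the unbound Rps15a, at the listed start. These are printed to place the tract beside the peaks, as 30 bases of mm9 on the strand of the gene from 10 bases before the start, with the tract in capitals.
Rpl14: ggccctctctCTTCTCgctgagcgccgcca
Rpl15: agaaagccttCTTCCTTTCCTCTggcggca
Rpl28: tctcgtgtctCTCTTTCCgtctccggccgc
Rpl35: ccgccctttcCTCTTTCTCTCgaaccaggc
Rpl38: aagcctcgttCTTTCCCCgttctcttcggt
Rplp2: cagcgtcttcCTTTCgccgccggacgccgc
Rps10: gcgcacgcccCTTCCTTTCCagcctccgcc
Rps15a: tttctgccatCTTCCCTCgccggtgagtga
Rps18: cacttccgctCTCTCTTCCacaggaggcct
Rps21: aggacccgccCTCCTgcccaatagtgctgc
Rps27: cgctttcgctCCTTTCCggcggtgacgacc
Rps6: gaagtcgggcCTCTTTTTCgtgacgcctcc

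The printed tracts were 5 to 13 bases long, shortest in Rplp2 and Rps21 and longest in Rpl15. In 11 bound genes the tract was at the start nearest to the peak. The middle of the peak lay upstream of this start in all 11, at -19 bp in Rpl38, -55 bp in Rps6 and -160 bp in Rps18. Among all 58 bound genes with a RefSeq start it lay upstream in 47, so this position is not particular to genes with a tract. A tract only at a start further from the peak was not measured. The tract was thus seen both in genes with a peak and in Rps15a, which had none. Measured from the RefSeq starts, the median offset of the nearest peak was -43.0 bp (n = 58 genes).

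Ribosomal components whose symbols fall outside the naming rule were also examined. Fau, a fusion of a ubiquitin-like protein and a small subunit protein, had a peak at -38 bp. Gnb2l1, which encodes the scaffold RACK1 on the small subunit, had a peak at -2 bp.

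Genes for other parts of ribosome production also had gene-proximal peaks in most cases. Mitochondrial ribosomal proteins form a separate ribosome, and all of their 76 genes but Mrpl24 were bound within 1 kb (75 genes, 98.7%, interval 92.9 to 99.8%). Of 56 ribosome biogenesis genes, which include the subunits of RNA polymerase I and assembly factors, 54 (96.4%, interval 87.9 to 99.0%) had one, all but Nop10 and Tsr2. The intervals of both overlapped that of the cytosolic ribosomal protein genes. A peak over a TSS was found in 86.8% of mitochondrial ribosomal protein genes and 76.8% of biogenesis genes, and 2 or more peaks in 26.3% and 26.8%. Of all protein-coding genes, 39.6% had a gene-proximal peak, 30.8% a peak over a TSS and 10.1% 2 or more gene-proximal peaks. The nearest peaks of mitochondrial ribosomal protein genes were centered at a median of -7.00 bp, with 58.7% upstream.

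Genes marked as Rpl or Rps pseudogenes, by a -ps symbol or a pseudogene type in the annotation, showed almost no peaks. Whether each is a processed copy was not checked. Of the 163, 1 (0.613%, interval 0.108 to 3.39%) had a gene-proximal peak, Rpl21-ps11 at 612 bp, and 0 had a peak over a TSS. The annotation types 55 of them, Rpl21-ps11 included, as protein-coding, so these 55 also count among all protein-coding genes. Of the 55, 1 (1.82%) had a gene-proximal peak, beside 39.6% of all protein-coding genes. A nearest peak between 1 and 50 kb away was found for 72 of the 163 pseudogenes (44.2%), beside 23.2% of all protein-coding genes. Among protein-coding genes outside the ribosomal set that had no gene-proximal peak, this share was 38.5%. The windows of 50 bases around the pseudogene starts were unique in a median of 75.5%, compared with 100% at the bound ribosomal protein genes. In 54 pseudogenes more than 90% of the windows were unique and in 21 fewer than 50%. Reads from repeated copies cannot be placed with certainty, and their part in the low share was not tested.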

How the data were processed

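Per the methods and the submitters' processing notes, reads were aligned by the authors to mm9 (Bowtie 1.0.0), and MACS 1.4.2 with input DNA as control gave the peaks. The deposited file lists peak starts and ends in bp, with no score, height or p-value; the threshold and the rule combining both immunoprecipitations are not given in the sources used here. The number of peaks listed, and with it every count of bound genes, depends on that threshold.

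Peaks were placed on GENCODE M1 (37273 genes, mitochondrial chromosome left out) by their middle, with 1 kb, 100 bp and 50 kb limits. CpG ratios used 500 bp on either side of 1 TSS per gene, the start of the transcript with the longest coding sequence. The same TSS served for the promoter motifs and the windows of 50 bases. Counts have 95% Wilson intervals, and no test was run. Alternatives were other windows, the peak edge, 1 TSS per gene, protein-coding TSSs, merged peaks and nearest-gene assignment. Distance, merging and motif functions were tested on simulated data. Software was Python 3.11.15, numpy 2.4.6, pysam 0.24.0 and matplotlib 3.10.9.

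The members, lists and motifs were chosen with earlier results of these data known. Rps4y2 was placed with the paralogs after the annotation was seen. Genes were named by rule: those without a peak or with 2 or more, the 5 smallest and 5 largest distances among those with 1, paralogs with parents, stalk genes, and Rps19, Rpl5, Rpl11, Rps14, Rpl22, Rpl10, Rpsa, Rps6, Rps27a, Fau and Gnb2l1. Some items under this rule are not reported here. Genes named for a shared promoter, a motif or a tract, and the printed sequences, were chosen after values were seen. Of 61 listed biogenesis symbols, 56 were found.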

Additional observations from a re-analysis of the deposited data

How the results depend on the processing

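The share of cytosolic ribosomal protein genes with a gene-proximal peak was 94.0%, and stayed between 91.7 and 95.2% with windows of 500 bp, 2 kb and 5 kb, with the peak edge, 1 TSS per gene, protein-coding TSSs or merged peaks. It was 97.4% (75 of 77 genes) without the paralogs named with l or l1, as planned. It moved to 82.1% when a peak counted only for the gene with the nearest TSS. Without the 5 paralogs Rpl10l, Rpl39l, Rpl3l, Rps4y2 and Rpl36al it was 98.7%, an alternative chosen after seeing the data. These 5 include every unbound paralog, so this rise follows from the choice. The share with a peak over a TSS fell from 88.1 to 75.0% with 1 TSS per gene, and that with 2 or more peaks from 17.9 to 4.76% with merged peaks. Counting only peaks more than 1 kb from every TSS, the share with a nearest peak 1 to 50 kb away went from 1.19 to 0%. The last 3 changes follow from fewer TSSs or fewer peaks being counted. The median offset ranged from -43.0 to -35.0 bp, and the median CpG ratio was 0.82 or 0.85. The share of genes with the nearest peak upstream fell from 75.9 to 64.9% with 1 TSS per gene. A stricter peak threshold was not run because the peak list used here has no score. The paper's supplement describes read intensities around each peak summit, which were not used here. No paired analysis was possible because the list pools its samples and no result comes from a test. Without heights or depth, weak binding at the 5 unbound genes cannot be told apart from none.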
